A study of Homo sapiens with 4 samples.

Results

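ATF4 stress targets and the cytosolic tRNA synthetase machinery were examined in the human pancreatic cancer line MiaPaca-2, an established line whose total RNA was sequenced in 2 samples that carried shPRMT1, a hairpin directed at PRMT1, and 2 that carried shNTC, a non-targeting hairpin. PRMT1 is the main enzyme that puts asymmetric dimethyl groups on arginine. The labels name 1 treatment per group and no other hairpin, so an effect of loss of PRMT1 and an effect of this hairpin on other genes cannot be told apart. The 10 genes are 5 ATF4 and unfolded protein response targets (CHAC1, DDIT3, ATF3, TRIB3 and PSAT1) and 5 genes of tRNA charging (SARS, IARS, FARSA, AIMP1 and AIMP2). They were chosen by symbol among 858 genes that make up the authors' deposited table, with these values known. That table holds genes with an unadjusted p under 0.05 for shPRMT1 against shNTC. The presence, p-values and shared direction of the 10 genes therefore depend on that choice and are given as a description.

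The authors' deposited table holds a ratio, its log2 value, a p and an adjusted p for each gene. The values of each sample were not analysed here, and neither the level of a gene nor its spread between replicates stands beside any ratio. The labels do not say whether the replicates are separate cultures. The numerator is not named; it was taken to be shPRMT1, since the ratio of PRMT1 is 0.356 in the authors' deposited table (log2 ratio −1.49, p = 0.0156, adjusted p = 0.411). With the other reading every direction below would turn round. Of 11 markers of ductal, fibroblast, leukocyte and acinar cells, the authors' deposited table holds the ductal keratin KRT19 (log2 ratio −0.24, p = 0.0207) and the fibroblast collagen COL1A2 (log2 ratio −0.51, p = 0.0429), both lower in shPRMT1 like the 10 genes. Ratios give no level, so the cell type could not be checked against its markers, and the part of these markers in the results was not tested.

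When amino acids run short, heme is low, double-stranded RNA appears or unfolded proteins collect in the endoplasmic reticulum, dedicated kinases phosphorylate the initiation factor eIF2. Bulk translation then slows, while the mRNA of the transcription factor ATF4 is translated better. ATF4 pairs with C/EBP proteins on composite DNA elements (CARE) of genes for amino acid synthesis, amino acid uptake and tRNA charging, and of genes such as DDIT3 that act when stress persists. Aminoacyl-tRNA synthetases join each amino acid to its tRNA. In animal cells several of them are held in a multisynthetase complex by the scaffold proteins AIMP1, AIMP2 and EEF1E1.

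The CARE core, TGATGNAA read on both strands, was found in RefSeq promoter entries (build GRCh38.p14, 250 bases before and 50 after a start) of 3 of the 10 genes, all of which had an entry. The entries that hold it are printed because they carry the core letters of the element through which ATF4 is known to act. Capitals mark the core, and binding of ATF4 at these matches was not examined. CHAC1 lies at chr15:40953221-40953520 on the plus strand, ATF3 at chr1:212565157-212565456 on the plus strand and IARS, named IARS1 in RefSeq, at chr9:92293648-92293947 on the minus strand.
CHAC1: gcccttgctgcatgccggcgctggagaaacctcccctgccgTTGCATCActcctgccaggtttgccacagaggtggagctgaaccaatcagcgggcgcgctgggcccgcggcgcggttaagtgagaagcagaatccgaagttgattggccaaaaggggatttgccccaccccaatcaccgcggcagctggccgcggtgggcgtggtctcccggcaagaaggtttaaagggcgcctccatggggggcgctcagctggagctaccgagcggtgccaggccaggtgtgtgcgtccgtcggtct
ATF3: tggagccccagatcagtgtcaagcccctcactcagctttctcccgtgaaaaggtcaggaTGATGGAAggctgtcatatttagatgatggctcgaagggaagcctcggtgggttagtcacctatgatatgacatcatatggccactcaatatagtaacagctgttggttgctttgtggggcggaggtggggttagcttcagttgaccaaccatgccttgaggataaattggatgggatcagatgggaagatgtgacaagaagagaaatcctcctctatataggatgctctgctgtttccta
IARS1: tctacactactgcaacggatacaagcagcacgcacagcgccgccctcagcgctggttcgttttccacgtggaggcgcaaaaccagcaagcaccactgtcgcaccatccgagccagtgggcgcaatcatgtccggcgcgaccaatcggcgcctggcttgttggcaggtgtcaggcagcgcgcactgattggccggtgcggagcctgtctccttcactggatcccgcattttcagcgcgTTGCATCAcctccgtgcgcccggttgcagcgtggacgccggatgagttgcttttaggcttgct

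In CHAC1 the core begins at base −209 from the start and in IARS at base −13, and in both it is the stricter form TGATGCAA, a subset of the looser letters, on the opposite strand (TTGCATCA as printed). In ATF3 the match begins at base −191 on the gene's own strand, keeps the looser form only and lies in 1 of 2 entries. The looser core occurs in 3.62% of all 35116 promoter entries, or 4.46% of the 27305 genes with an entry, and the stricter core in 1.08% of these genes. No core was found in the entries of DDIT3, TRIB3, PSAT1, SARS, FARSA, AIMP1 or AIMP2, which says only that these letters are not in these windows. The core of the XBP1-bound element (UPRE), TGACGTGG, and the endoplasmic reticulum stress element (ERSE), searched as CCAAT and CCACG with 9 bases between them, were in none of the 10 genes and in 0.927% and 0.0916% of all genes.

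Among the cytosolic synthetases, 7 of the 16 genes with a RefSeq entry (43.8%) hold a CARE core, IARS and 6 that are outside the authors' deposited table. Windows of 30 bases are printed to show the bases around each match, with the core in capitals. The likeness of the capitals follows from the search, and the flanking bases were not compared. They lie at chr16:70289675-70289704 (AARS1, minus strand), chr11:3057407-3057436 (CARS1, minus), chr7:30594834-30594863 (GARS1, plus), chr9:92293692-92293721 (IARS1, minus), chr12:57488053-57488082 (MARS1, plus), chr18:57621804-57621833 (NARS1, minus) and chr5:33440956-33440985 (TARS1, plus) in GRCh38.p14.
AARS1: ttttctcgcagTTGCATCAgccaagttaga
CARS1: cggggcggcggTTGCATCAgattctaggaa
GARS1: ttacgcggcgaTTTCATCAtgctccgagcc
IARS1: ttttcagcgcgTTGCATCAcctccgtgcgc
MARS1: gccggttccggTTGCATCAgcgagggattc
NARS1: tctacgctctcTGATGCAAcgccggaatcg
TARS1: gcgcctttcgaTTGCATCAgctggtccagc

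Of these 7 synthetases, 6 hold the stricter form and GARS1 only the looser one. The match begins between base −33 and base 15 from the start in 6 of them and at base −187 in AARS1. Synthetases with and without the core stood on both sides of the table's bound: IARS has it and is listed, SARS and FARSA lack it in these windows and are listed, and 6 synthetases have it and are not. Of 501 lower genes in the authors' deposited table, 403 had an entry and 11 of these (2.73%) held the looser core, against 6 of 269 higher genes (2.23%). Both shares are below the 4.46% of all genes with an entry, but those include genes that were not tested. The share among the tested genes was not computed, so nothing is read from this. As a check of the search, ERSE was in 7 of 20 genes of the IRE1 and ATF6 branches of the unfolded protein response and CARE in none of them.

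**Figure D1:**
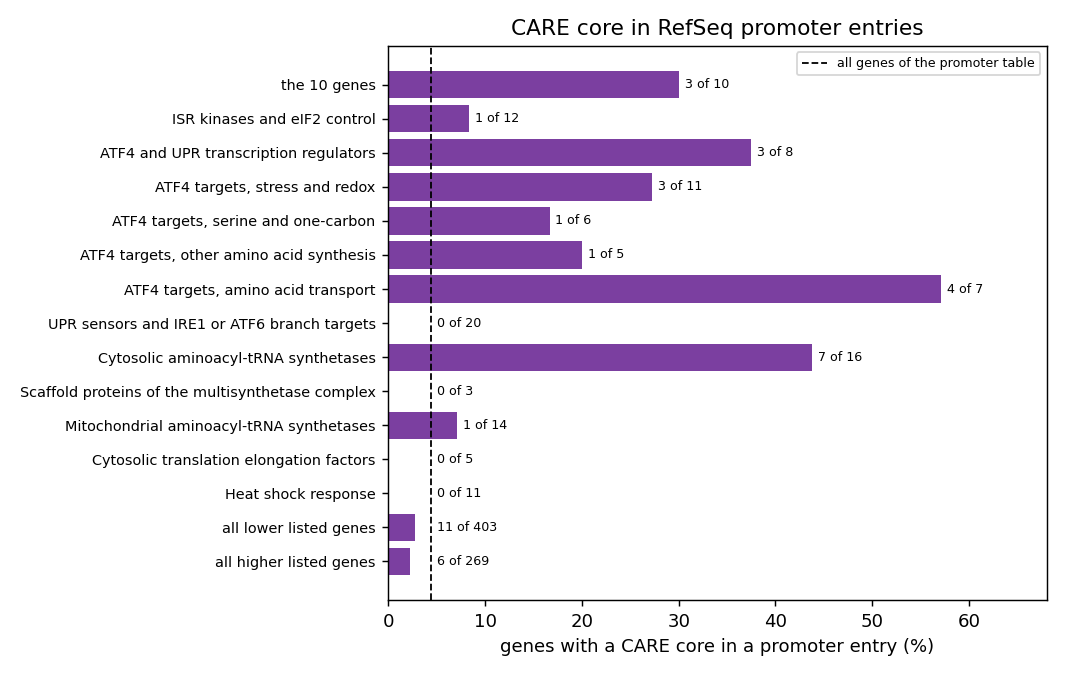
Share of genes (x axis, %) with a CARE core in a RefSeq promoter entry, for the 10 genes, for 12 gene lists and for the lower and higher genes of the deposited table, with the number of genes beside each bar. The dashed line marks all genes with an entry (4.46%), whether or not they were tested. The 10 genes stand at 3 of 10 and the cytosolic synthetases at 7 of 16. The lower and higher genes of the table lie below the line (ISR, integrated stress response, and UPR, unfolded protein response).

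All 10 genes were listed lower in shPRMT1, with log2 ratios from −0.49 to −0.08 in the authors' deposited table and a median of −0.24, but PSAT1 and FARSA stood above 0 with every log2 value raised by 0.1, and these and AIMP1 with values centred on the median of all listed genes. Of all 858 listed genes 501 were lower, and the shared direction of the 10, chosen with these values known, is not read as a result. Over all 858 listed genes the median was −0.12, and over the 501 lower ones −0.28, so the median of the 10 genes lay between these medians. An absolute log2 ratio of at least 0.25 was reached by 5 of the 10 genes and by 58.3% of lower genes, and 0.5 by none of the 10 and by 21.2% of lower genes. The adjusted p-values imply 7640 genes tested. Of these 11.2% had p under 0.05 and 6.56% had p under 0.05 and a lower value, but the members were taken from that set and nothing is read from their count. At p under 0.01 stood 1 of the 10 genes (CHAC1), against 22.3% of the 858 listed genes, from which the 10 were taken, and 2.5% of genes tested. An adjusted p under 0.05 was reached by 0.0131% of genes tested and by none of the 10, whose adjusted p lay between 0.390 and 0.442 in the authors' deposited table.

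**Figure D2:**
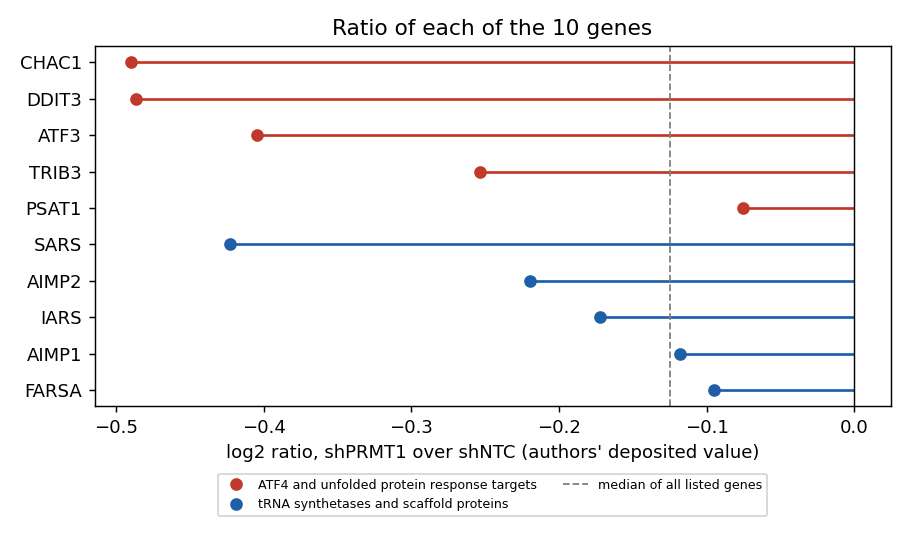
Log2 ratio of shPRMT1 over shNTC (x axis) for each of the 10 genes, from the authors' deposited table, grouped by role; there is no error bar because sample values were not analysed. Ratios run from −0.49 (CHAC1) to −0.08 (PSAT1), and the dashed line is the median of all 858 listed genes (−0.12), to the right of which PSAT1, FARSA and AIMP1 lie.

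CHAC1 (ENSG00000128965.7), an enzyme that cleaves glutathione and a sensitive ATF4 target, had the lowest ratio of all 10, listed at 0.712 in the authors' deposited table (log2 ratio −0.49, p = 0.00831, adjusted p = 0.390). As deposited, this ratio stands for a value 28.8% lower in shPRMT1 than in shNTC. DDIT3 (ENSG00000175197.6), the bZIP factor CHOP that is linked to death of stressed cells, stood next to it at 0.714 in the authors' deposited table (log2 ratio −0.49, p = 0.0131). ATF3 (ENSG00000162772.12), a bZIP repressor induced by many stresses, was listed at a shPRMT1 to shNTC ratio of 0.756 in the authors' deposited table, with log2 ratio −0.40 and p = 0.0255. These 3 genes, 2 of them transcription factors downstream of ATF4, were each listed as 24.4% to 28.8% lower.

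TRIB3 (ENSG00000101255.6), a pseudokinase that binds ATF4 and dampens its activity, was lower by a smaller amount, listed at 0.839 in the authors' deposited table (log2 ratio −0.25, p = 0.0203). PSAT1 (ENSG00000135069.9), the transaminase of serine synthesis, had the smallest difference of the 10 genes, at 0.949 or 5.08% lower in the authors' deposited table (log2 ratio −0.08, p = 0.0395). The deposited ratios of the 5 stress targets therefore spread from 28.8% to 5.08% lower, with a median log2 ratio of −0.40. GENCODE 29 names 4 pseudogenes of PSAT1 (PSAT1P1 to PSAT1P4) that could share its reads, so its small value is uncertain.

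SARS (ENSG00000031698.8, now SARS1), which charges the serine and selenocysteine tRNAs, had the lowest ratio among the tRNA charging genes, listed at 0.746 in the authors' deposited table (log2 ratio −0.42, p = 0.0223). It stood between DDIT3 and ATF3 in size, and lower than the other 4 genes of its group. IARS (ENSG00000196305.13, now IARS1), the isoleucine enzyme and a subunit of the multisynthetase complex, was listed at a shPRMT1 to shNTC ratio of 0.887 in the authors' deposited table, with log2 ratio −0.17 and p = 0.0427. FARSA (ENSG00000179115.6), the catalytic subunit of the phenylalanine enzyme, was listed at a shPRMT1 to shNTC ratio of 0.936 in the authors' deposited table, with log2 ratio −0.09 and p = 0.0497. FARSA is the member nearest to the p of 0.05 that bounds the table; genes past that bound were not analysed here. FARSB, its partner subunit, is outside the table.

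AIMP2 (ENSG00000106305.5), the scaffold on which the multisynthetase complex assembles, was listed at a shPRMT1 to shNTC ratio of 0.859 in the authors' deposited table, with log2 ratio −0.22 and p = 0.0162. AIMP1 (ENSG00000164022.12), which binds tRNA and is also secreted as the precursor of the cytokine EMAP II, was listed at a shPRMT1 to shNTC ratio of 0.921 in the authors' deposited table, with log2 ratio −0.12 and p = 0.0373. The median log2 ratio of the 5 tRNA charging genes was −0.17. The difference between this median and that of the stress targets was not tested. In this small set the order by p is not the order by size: AIMP2 has the third smallest p and the sixth largest difference.

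**Figure D3:**
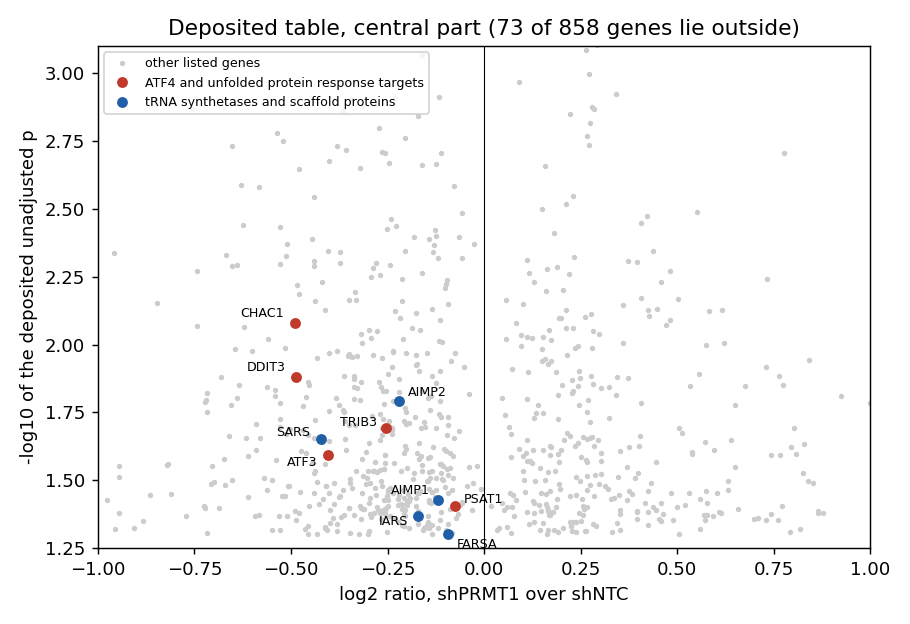
Log2 ratio of shPRMT1 over shNTC (x axis) against −log10 of the unadjusted p (y axis) for the genes of the deposited table, with the 10 genes named; 73 of 858 genes lie outside the plotted range. As deposited, the 10 genes sit left of 0 (PSAT1, FARSA and AIMP1 right of it with centring) within the bulk of the lower genes, with CHAC1 uppermost and FARSA at the lower bound of the table.

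Some of these values can include reads of neighbours, since the strand setting of the authors' counting is not given in the sources used here. In GENCODE 29 exons of DDIT3 share 355 bases with MARS, itself a cytosolic synthetase, on the opposite strand, and 58 bases with MBD6 there, and 105 bases with another protein-coding gene model on its own strand. Exons of AIMP2 share 532 bases on the opposite strand with EIF2AK1, the heme-sensing eIF2 kinase. Neither MARS nor EIF2AK1 is in the authors' deposited table. Exons of AIMP1 share 387 bases on the opposite strand with TBCK, which is listed lower too, with a log2 ratio of −0.34 in the authors' deposited table (p = 0.0130). AIMP1 also has 2 named pseudogenes. FARSA shares 25 bases with its antisense gene, and CHAC1, ATF3, TRIB3, PSAT1, SARS and IARS share none with another gene of that annotation.

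The pathway, with heat shock and other translation genes, was followed in 12 lists of 140 genes in all, the 10 genes included. Of these 140 genes the authors' deposited table lists 19, 16 as lower and 3 as higher. The lower count was 14 with every log2 value raised by 0.1, and 11 with centring. These 19 are 13.6% of the list genes, near the 11.2% of all genes tested. Without the 10 genes, which were chosen as listed, 9 of 130 were listed (6.92%), 6 lower and 3 higher. Taking out listed genes lowers this share by itself, and the lists can hold genes that were not tested. Nothing is therefore read from this share beside the 11.2%. A gene outside the table was either not tested or missed an unadjusted p of 0.05. Among regulators of ATF4 and the unfolded protein response, 3 of 9 genes were listed, all lower (DDIT3, ATF3 and TRIB3), and ATF4 itself was not listed. These 3 are members chosen as listed, so nothing is read from their share (33.3%) beside the 11.2% of all genes tested. The eIF2 kinases and control factors had 0 of 14 genes listed, and the sensors and targets of the IRE1 and ATF6 branches, the endoplasmic reticulum chaperone HSPA5 among them, had 0 of 21. With 11.2% of all genes tested listed, lists of this size would hold few listed genes, and how many of their genes were tested is unknown. Nothing is therefore read from these 0 counts.

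Stress and redox targets of ATF4 had 1 of 14 genes listed (CHAC1; 7.14%), and serine and one-carbon enzymes 1 of 9 (PSAT1; 11.1%). All genes tested stood at 11.2%, and the shares of these small lists were not tested. Other amino acid synthesis genes had 2 of 6 listed (33.3%), both lower as deposited, and CBS higher with centring. PYCR1, which makes proline, had a log2 ratio of −0.47 in the authors' deposited table (p = 0.0168), close to that of DDIT3. CBS, which makes cystathionine from homocysteine and serine, had −0.10 in the authors' deposited table (p = 0.00617). Amino acid carriers had 0 of 9 genes listed. Of the 7 carriers with a promoter entry, 4 hold a CARE core. A relation between the core and listing was not tested.

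Of 20 cytosolic synthetases 3 were listed (15.0%, near the 11.2% of all genes tested), and of 3 scaffold proteins 2, all lower as deposited, with FARSA and AIMP1 higher with centring. In a split made after the values were seen, the multisynthetase complex had 3 of 11 genes listed (IARS, AIMP1 and AIMP2; 27.3%) and the synthetases outside it 2 of 12 (SARS and FARSA; 16.7%). These counts consist of members chosen as listed, and nothing is read from them. Mitochondrial synthetases had 3 of 17 listed (17.6%, beside the same 11.2%) and were mixed in direction. TARS2 stood at −0.20 (p = 0.0284) and RARS2, higher with centring, at −0.11 (p = 0.0125), with LARS2 at 0.28 (p = 0.00892) as log2 ratios of the authors' deposited table. Elongation factors, among them those that carry charged tRNA to the ribosome and move it on, had 3 of 7 listed (42.9%, beside the same 11.2%). That list is small and its share was not tested. EEF1A1, which has near-identical pseudogenes that make its value uncertain, stood at 0.09 (p = 0.00108), EEF2 at 0.17 (p = 0.0347) and EIF5A at −0.17 (p = 0.0353) as log2 ratios of the authors' deposited table. Heat shock genes had 1 of 11 listed (9.09%), HSPH1, at −0.15 (p = 0.0262) in the authors' deposited table. None of these genes had an adjusted p under 0.05.

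**Figure D4:**
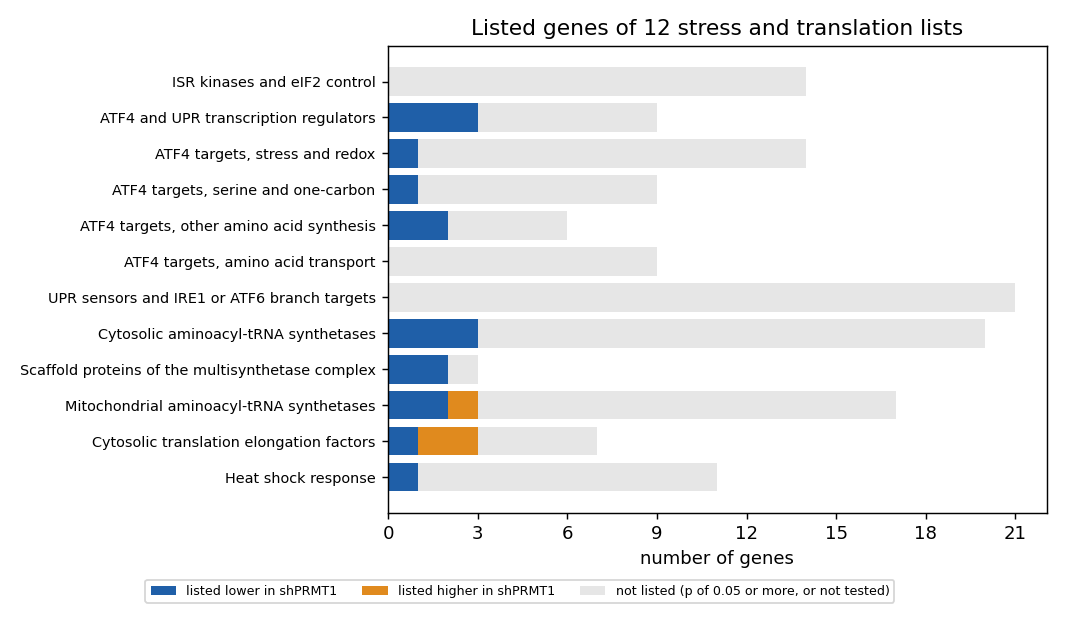
Number of genes (x axis) in each of 12 lists that the deposited table holds as lower or higher in shPRMT1, with the remaining genes in grey. Apart from PYCR1 and CBS, the listed genes of the ATF4, cytosolic synthetase and scaffold lists are members, chosen with these values known. Of all genes tested 11.2% were listed, and nothing is read from the small lists that have none. The listed genes of the ATF4, cytosolic synthetase and scaffold lists are all lower as deposited (PSAT1, FARSA, AIMP1 and CBS higher with centring), those of the mitochondrial synthetases (RARS2 higher with centring) and elongation factors are on both sides, and the chaperone branches, eIF2 control and amino acid carriers have none (ISR, integrated stress response; UPR, unfolded protein response).

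Direction in this table goes with transcript length, and 9 of the 10 genes are short. The longest GENCODE 29 transcript of the 10 genes had a median of 2080 nt, against 2823 nt for the 497 lower and 4436 nt for the 349 higher genes with a length. By length 9 of the 10 genes fell in the shortest 2 of 5 equal groups, in which 67.6% and 76.3% of genes were lower, with group median log2 ratios of −0.21 and −0.24 in the authors' deposited table. IARS, at 4656 nt, fell in the fourth group, where 47.9% were lower. The part of length in the lower values of the 10 genes was not tested.

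**Figure D5:**
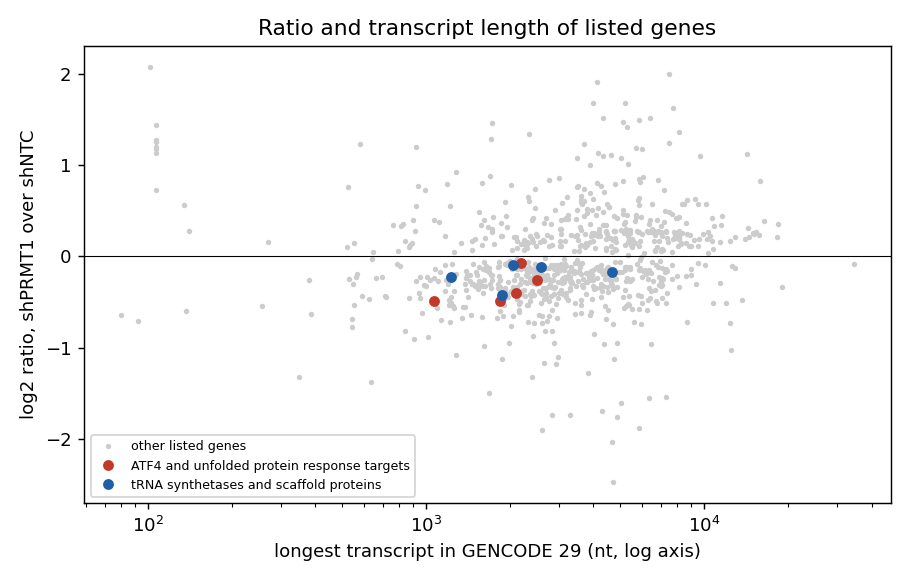
Longest transcript (x axis, nt, log scale) against log2 ratio of shPRMT1 over shNTC (y axis) for 846 listed genes, with the 10 genes in colour. They lie between 1067 nt (DDIT3) and 4656 nt (IARS), 9 of them in the shortest 2 of 5 length groups, where 67.6% and 76.3% of genes are lower.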

How the data were processed

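Total RNA of 4 samples, 2 shPRMT1 and 2 shNTC, was grouped by the titles. The submitters' processing notes name build hg19 and, without roles, edgeR 3.36.0, StringTie 2.2.1, HISAT2 2.2.1, Trim Galore 0.6.7 and deepTools. The labels' extraction text describes a chromatin immunoprecipitation beside a total RNA kit; the samples were taken as RNA. Per gene the authors deposited a p-value, an adjusted p-value, a ratio (linear fold change) and the log2 of that ratio. The sources used here do not give their test, normalization or filter. Depth is unknown.

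No test was run. The members and lists were chosen with earlier results of these data known, and all members, PRMT1 and every listed gene of the lists are named; MARS, EIF2AK1 and TBCK were named after their overlap was seen. How many genes were tested was worked out from the adjusted p-values (52 of 53 runs of equal values gave 7640 within 0.01; 50 of 50 simulated tables were recovered). Symbols were matched through RefSeq synonyms. Motifs were counted in RefSeq promoters of GRCh38.p14. As a check of the search code alone, 200 of 200 planted CARE cores were found in simulated sequences otherwise made of A and C. Transcript length, for 846 of 858 genes, and exon overlap came from GENCODE 29, on another build than the authors', so none of its coordinates is given. Protein features, planned at first, were not analysed here. Python 3.11.15, numpy 2.4.6, pandas 2.3.3 and matplotlib 3.10.9 were used.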

Additional observations from a re-analysis of the deposited data

How the results depend on the processing

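The count of 10 genes listed lower became 1 at an unadjusted p under 0.01, 0 at an unadjusted p under 0.001 and 0 at an adjusted p under 0.05; the 0 counts rest on the authors' p-values, by a test not named in the sources used here, under which all 10 have an unadjusted p under 0.05. It became 5 with an absolute log2 ratio of at least 0.25 and 0 with at least 0.5. A common offset matters because the normalization is unknown. With every log2 value raised by 0.1, 8 genes stayed lower and the median was −0.14; the log2 ratios were −0.39 for CHAC1, −0.39 for DDIT3, −0.30 for ATF3, −0.15 for TRIB3, 0.025 for PSAT1, −0.32 for SARS, −0.12 for AIMP2, −0.072 for IARS, −0.018 for AIMP1 and 0.0053 for FARSA. Centred on the median of all listed genes, 7 stayed lower and the median was −0.11; the log2 ratios were −0.37 for CHAC1, −0.36 for DDIT3, −0.28 for ATF3, −0.13 for TRIB3, 0.050 for PSAT1, −0.30 for SARS, −0.095 for AIMP2, −0.047 for IARS, 0.0066 for AIMP1 and 0.030 for FARSA. PSAT1 and FARSA thus turned to the higher side under both settings and AIMP1 under centring. Added after the data were seen, a centred log2 ratio of −0.25 or lower was met by 4 genes. The median was −0.40 for the stress targets alone and −0.17 for the tRNA charging genes alone. The count of 3 promoters with a CARE core became 2 with the stricter letters, and stayed at 3 with only the bases before the start or, added later, with the first entry of each gene. In the offsets the shift itself moves each value; no other cause was tested. No paired analysis was possible because the files give the authors' comparison and no values of single samples, and for the same reason no replicate could be left out.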

Other observations

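Of 8 genes that export tRNA or act in initiation, grouped after values were seen, 3 were listed, all lower, and 5 were not. The 3 were noticed because they are listed, so their number is not set against the 11.2% of all genes tested that are listed. XPOT, the exporter that carries tRNA out of the nucleus, had a log2 ratio of −0.19 in the authors' deposited table (p = 0.0312), close to that of IARS. EIF2D, a factor that can deliver initiator tRNA to the ribosome without eIF2, had −0.26 in the authors' deposited table (p = 0.00195), close to TRIB3 and with a smaller p than any of the 10 genes. EIF1AX, an initiation factor that takes part in scanning for the start codon, had −0.15 in the authors' deposited table (p = 0.0107). None had an adjusted p under 0.05, and none of their promoter entries held a CARE core.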
